A study of Marchantia polymorpha with 12 samples.

Results

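The transposable elements described here were the DTC DNA transposons of the liverwort Marchantia polymorpha, taken as every row whose name ended in DTC:DNA. They made up 4113 of the 89262 transposable element copies in the deposited count tables, which also held 19441 gene rows. DTC is the code of the CACTA superfamily, the cut-and-paste elements best known from En/Spm of maize. A CACTA element carries short terminal inverted repeats, and its transposase excises it and inserts it elsewhere. In plants such elements are mostly kept silent by DNA methylation. Polycomb Repressive Complex 2 (PRC2), whose catalytic E(z) subunit places the repressive mark H3K27me3, covers many transposable elements in Marchantia as well as genes.

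RNA was taken from thalli grown for 14 days, and polyA-selected, strand-keeping libraries were sequenced in 2 experimental sets. Set 1 compared 3 libraries of the single mutant Mpknox2-1 with 3 of the double mutant Mpknox2-1 Mpez1-1. Set 2 compared 3 other Mpknox2-1 libraries with 3 of Mpknox2-1 Mpez1-2, which carries another allele of the same PRC2 gene. All 12 libraries therefore lacked normal MpKNOX2, a homeodomain transcription factor, and no wild type was among them. The nature of the Mpez1 alleles, and whether each genotype was 1 line, are details that the sources used here do not give. The series is about the effect of PRC2 loss on genes and transposable elements, and each set asked this of 1 allele.

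Each library had a first table and a table marked _as, read here as counts on the opposite strand. That reading rests on the gene counts, and what strand means for a transposable element copy is not given in the sources. Genes held 7019900 to 12098548 counts per library in the first tables and 126357 to 225298 in the _as tables. DTC copies held 546 to 1082 counts per library in the first tables, 0.959% to 1.97% of the transposable element counts there. They held 1420 to 3341 in the _as tables, a smaller share of the transposable element counts there (0.211% to 0.568%). All transposable element rows held 29645 to 85937 counts per library in the first tables and 366632 to 1028910 in the _as tables. Without positions of the copies, reads of genes that overlap them could not be set apart. The transcript of the targeted gene, MpE(z)1 (Mp5g18040), was counted 360, 304 and 248 times in set 1 controls and 120, 123 and 80 times in the double mutants. In set 2 it was counted 392, 344 and 416 times against 165, 217 and 204. It fell by 1.06 on the log2 scale in set 1 and by 0.78 in set 2 (edgeR quasi-likelihood test, adjusted p = 6.06e-04 and 3.36e-05).

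Most DTC copies had no counts. Over the 12 libraries 709 members had any count in the first tables (17.2%, against 19.3% of all transposable element copies), and 822 had one in the _as tables (20%, against 19.5%). A further 2811 members had 0 counts in all 24 tables. Of the members with counts, 650 in the first and 717 in the _as tables had only 1 to 9 in total, and 15 and 30 reached 100. The 145 members named TE_struc were among those at 0, as were all 820 TE_struc rows of any superfamily, so that the values below come from the 3968 members named TE_homo. For 32 of these 145 the name gave coordinates and no family, with an end minus start of 728 to 4737 bp. The rest fell into 119 families, of which 54 had 1 member and 15 had over 100 (3376 members together). The names of TE_homo copies give no length, so levels of different copies are not compared with each other.

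Summed over all members, counts on DTC copies were higher in both double mutants, in both kinds of table. Over all members the sum in the first tables was 79.4, 73.4 and 69.1 CPM (counts scaled to a common library size of 1e6) in set 1 controls and 132, 128 and 121 in the Mpez1-1 double mutants. The means were 74 ± 5.17 and 127 ± 5.14 CPM (SD, n = 3), a fold of 1.72. In set 2 the sum was 58.1, 51 and 52.4 CPM in controls against 80.8, 77.3 and 86.4 in Mpez1-2 double mutants, a fold of 1.52. The _as sums were 179, 194 and 236 against 355, 396 and 379 CPM in set 1, and 142, 133 and 129 against 195, 178 and 182 CPM in set 2. These are folds of 1.87 and 1.38, and in all 4 comparisons every double mutant library lay above every control. The controls of the sets differed too, with a lower sum in set 2 than in set 1 in both kinds of table. A few copies carried much of each sum: the 5 most counted held 38.7% to 55.1% of a library's DTC counts in the first tables and 44.8% to 73.8% in the _as tables. The families TE_00001297 and TE_00001293 carried the rise of the _as sums. TE_00001297 went from a mean of 59.3 to 197 CPM in set 1 and from 13.5 to 35.4 CPM in set 2. TE_00001293 went from 34.8 to 95.9 CPM and from 32.4 to 61.9 CPM. Their rises together were at least as large as those of the _as sums, so the other members together were not higher there. That is a net value of families that fell and families that rose. TE_00000548 fell from 58.9 to 26.4 CPM in set 1 and from 32.1 to 20.9 CPM in set 2. TE_00001193 rose from 4.66 to 9.26 CPM and from 3.41 to 7.49 CPM. No test was made of these sums, and in whole thalli more cells of a type and more RNA per cell cannot be told apart.

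**Figure D1:**
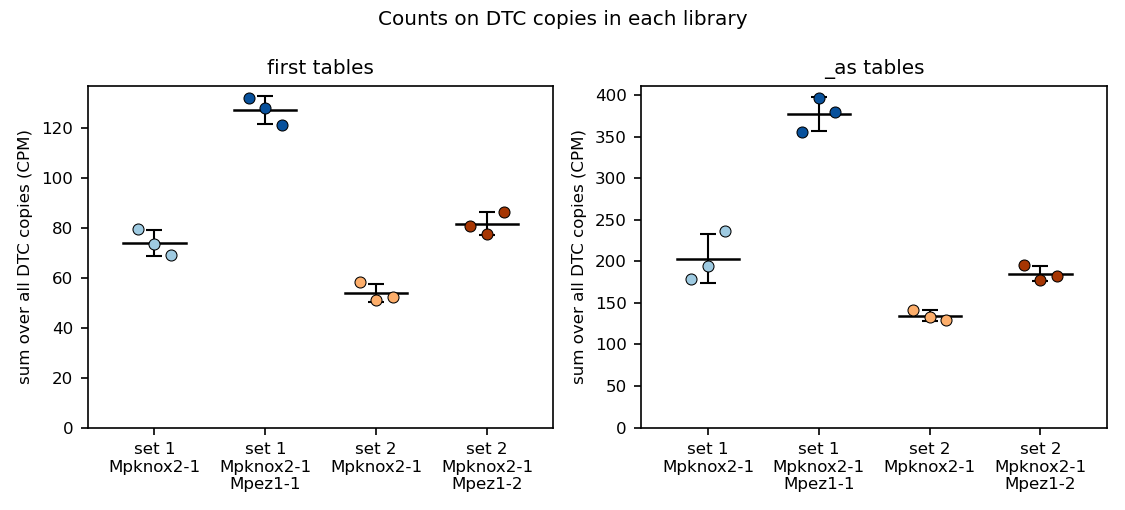
Sum of CPM over all 4113 DTC copies in each library (points), with the mean and SD of each group of 3 (lines and bars), in the first tables (left) and the _as tables (right). In both sets and both kinds of table every double mutant library is above every control, with set 1 double mutants at 121 to 132 CPM in the first tables and 355 to 396 CPM in the _as tables.

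Single copies were tested with edgeR's quasi-likelihood test, with p-values adjusted over all transposable element copies that passed a filter on low counts. Of DTC copies in the first tables of set 1, 15 passed the filter and 8 of them were higher in the double mutants, where 54.8% of the 314 tested copies of all kinds were. None of the 15 was lower (background 6.37%), also at an unadjusted p under 0.05 and with DESeq2. In set 2, 7 of 13 were higher and 1 lower (backgrounds 47.3% and 2.86%). Of _as copies, 15 of 24 were higher and 3 lower in set 1 (41.4% and 11.3%), and 17 of 34 were higher and 1 lower in set 2 (41.7% and 4.15%). These shares were near the background in the first tables, and in neither kind of table were DTC copies tested against other classes. The median log2 fold change of tested DTC copies was 0.99 and 0.67 in the first tables of sets 1 and 2, against 1.40 and 0.86 over all tested copies. For _as copies it was 1.66 and 1.03, against 0.57 and 0.50. The filter keeps copies that are high in only 1 of the groups, so these medians and counts describe the tested copies and not all members.

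Among copies tested in both sets, 4 of 11 were higher in both in the first tables (background 43.3%), and 11 of 21 in the _as tables (33.2%). One, in the _as tables, was lower in both (3.18%). The pair of fold changes had the same sign for 8 of the 11 and 18 of the 21 copies. Pearson's r over these copies was 0.93 in the first tables, where n was 11, and 0.80 in the _as tables, where n was 21, given as a description because copies of a family and of a library are not independent. By rank the order was reversed, with Spearman's correlation at 0.76 in the first and 0.88 in the _as tables. The sets have separate controls. Counted without a filter, 10 of the 137 members with a count in each set had all double mutant libraries above all controls in both sets in the first tables (background 5.58%), and 23 of 219 in the _as tables (10.9%). In the opposite direction the numbers were 0 and 6 (0.194% and 1.43%).

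**Figure D2:**
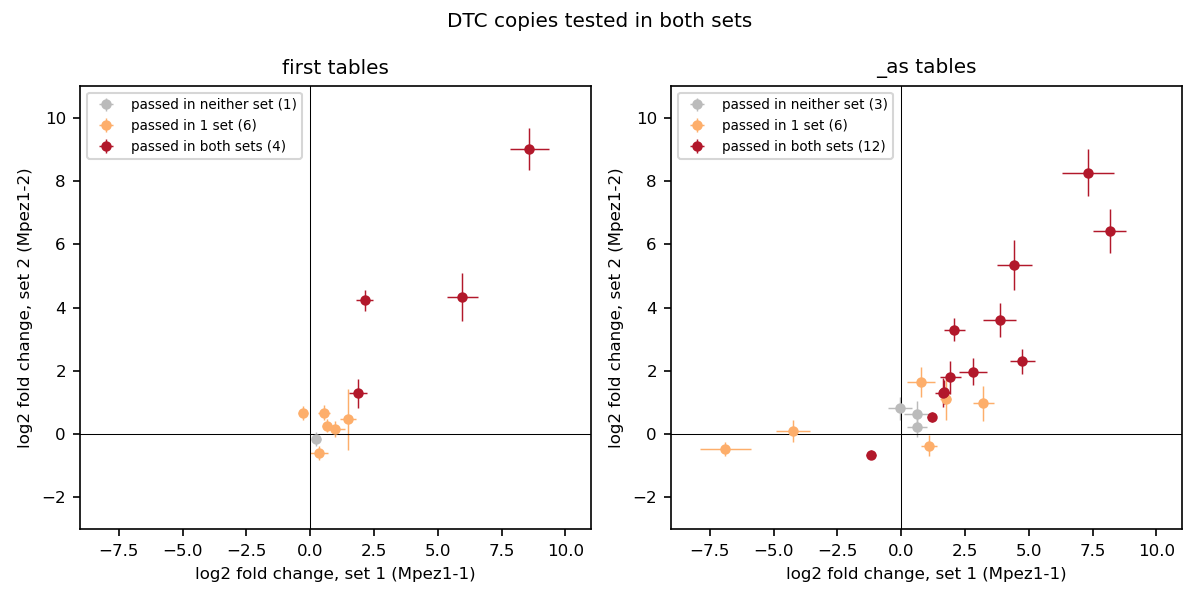
Log2 fold change of each DTC copy tested in both sets, set 1 (Mpez1-1, x axis) against set 2 (Mpez1-2, y axis), with standard errors, for 11 copies in the first tables and 21 in the _as tables. Red copies passed in both sets; 4 in the first tables and 11 in the _as tables lie up and right of 0, and 1 in the _as tables lies below 0 on both axes.

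The family TE_00001293 rose in both sets on both strands. It has 130 copies, 17.4% of the DTC counts of the first tables and 24.9% of those of the _as tables. Its sum rose in the first tables from 9.61 ± 3.9 to 31.2 ± 5.2 CPM in set 1 and from 5.3 ± 1.12 to 15.2 ± 1.96 CPM in set 2 (SD, n = 3; log2 fold changes 1.69 ± 0.27 and 1.57 ± 0.17 SE, edgeR adjusted p = 0.00135 and 2.41e-06). Higher DTC families numbered 4 of 12 tested in set 1 and 5 of 8 in set 2, where 39.3% and 50.6% of all tested families were higher. No DTC family was lower in the first tables of either set, also at an unadjusted p under 0.05 and with DESeq2 (backgrounds 2.37% and 3.61%). The _as sum of TE_00001293 rose from 34.8 ± 6.24 to 95.9 ± 7.64 CPM and from 32.4 ± 3.72 to 61.9 ± 7.56 CPM (1.46 ± 0.16 and 0.98 ± 0.12, edgeR adjusted p = 9.48e-05 and 4.00e-08). It was 1 of 7 higher DTC families of 17 in set 1 and 1 of 5 of 13 in set 2 (backgrounds 29.9% and 34.8%).

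In the first tables a large part of this rise lay in copies with neighbouring numbers, and in the _as tables a smaller part. Between TE_homo_57220 and TE_homo_57245 the tables list 26 transposable element rows, of which 6 are copies of TE_00001293. TE_struc rows that carry coordinates are numbered by position within a chromosome, but TE_homo rows carry none, so that these copies are neighbours by number only. Together the 6 copies went from 0.292 ± 0.0637 to 13.1 ± 2.58 CPM in the first tables of set 1 (44.8-fold) and from 0.362 ± 0.233 to 9.71 ± 1.19 CPM in set 2 (26.8-fold). Their _as sum went from 0.835 ± 0.107 to 12.5 ± 1.26 CPM in set 1 (15-fold) and from 0.907 ± 0.55 to 12 ± 2 CPM in set 2 (13.2-fold). The other 124 copies of the family together changed 1.95-fold and 1.11-fold in the first tables, with overlapping groups, and 2.45-fold and 1.58-fold in the _as tables, without overlap. On that strand the other copies carried most of the rise, at 34 against 83.3 CPM in set 1 and 31.5 against 49.9 CPM in set 2. This division was made after the values were seen.

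TE_homo_57245 had 0 counts in the first tables of all 6 controls and was counted 26, 58 and 39 times in the set 1 double mutants and 64, 58 and 55 times in those of set 2. Against a floor of 3 counts summed over the 3 controls this is at least 55.6-fold and at least 65.6-fold higher, a bound that covers counting error only (edgeR adjusted p = 1.22e-04 and 2.05e-07). On the opposite strand it also rose, from 1, 3 and 0 counts to 17, 13 and 16 in set 1 and from 2, 1 and 2 to 18, 17 and 22 in set 2. These are log2 fold changes of 3.86 and 3.61 (edgeR adjusted p = 0.00148 and 4.83e-05), and the first was 4.96 without set 1 control replicate 2.

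TE_homo_57230 was near silent in the controls of both tables. Its first-table counts were 0, 2 and 0 against 37, 34 and 38 in set 1, and 2, 0 and 0 against 13, 14 and 15 in set 2. The ratios were 73.9 (95% counting interval 20 to 618) and 23.3 (6.07 to 199), with edgeR adjusted p = 6.48e-05 and 1.88e-04. In both sets 1 control library held every control count, replicate 2 in set 1 and replicate 1 in set 2; the fitted log2 fold changes of 5.96 and 4.34 were 8.36 and 6.89 without it. On the opposite strand it went from 0 in each set 1 control to 30, 35 and 26 counts, at least 41.1-fold higher, and from 0, 0 and 1 to 44, 31 and 27 in set 2, a ratio of 113 (19.9 to 4520; edgeR adjusted p = 2.01e-04 and 2.28e-06). The set 2 fitted change of 6.41 was 8.19 without set 2 control replicate 3, which held the count.

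TE_homo_57240 had no _as count in any control, against 9, 28 and 14 counts in set 1 and 31, 39 and 37 in set 2. It was at least 23-fold and at least 39.6-fold higher (edgeR adjusted p = 0.00168 and 1.21e-06). Its first-table counts of 8, 5 and 11 against 0 in set 1 were too few for the filter, and in set 2 it rose from 3, 1 and 1 to 11, 12 and 12 (log2 fold change 2.91, edgeR adjusted p = 8.60e-04; 3.56 without set 2 control replicate 1). TE_homo_57220 rose in the _as tables by 1.93 and 1.79 on the log2 scale (edgeR adjusted p = 0.0054 and 0.00871). Its set 2 call was lost without double mutant replicate 1 (1.52, edgeR adjusted p = 0.0513), and its value was 2.57 without control replicate 1. TE_homo_57231 rose in the _as tables of set 1, from 1, 0 and 0 counts to 14, 13 and 8 (edgeR adjusted p = 7.37e-04; the fitted 5.06 was 6.73 without control replicate 1), and was not tested in set 2, at 0 against 5, 5 and 4 counts.

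Some copies of this numbered stretch had reads on both strands, which was uncommon among members. Of 71 members with at least 50 counts, 20 had over 95% of them in the first tables and 45 had under 5%. Only 6 lay between, and TE_homo_57220, TE_homo_57230, TE_homo_57240 and TE_homo_57245 were 4 of these, with 30.4%, 44.4%, 28.8% and 72.8% of their counts in the first tables. TE_homo_57231 of the same stretch had 1.96% there. A Copia retrotransposon row numbered among them, TE_homo_57228, had 0 first-table counts in all 6 controls and 229, 263 and 188 in set 1 and 1028, 1188 and 1195 in set 2 double mutants. Whether reads of 1 transcript were divided over these rows was not tested.

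**Figure D3:**
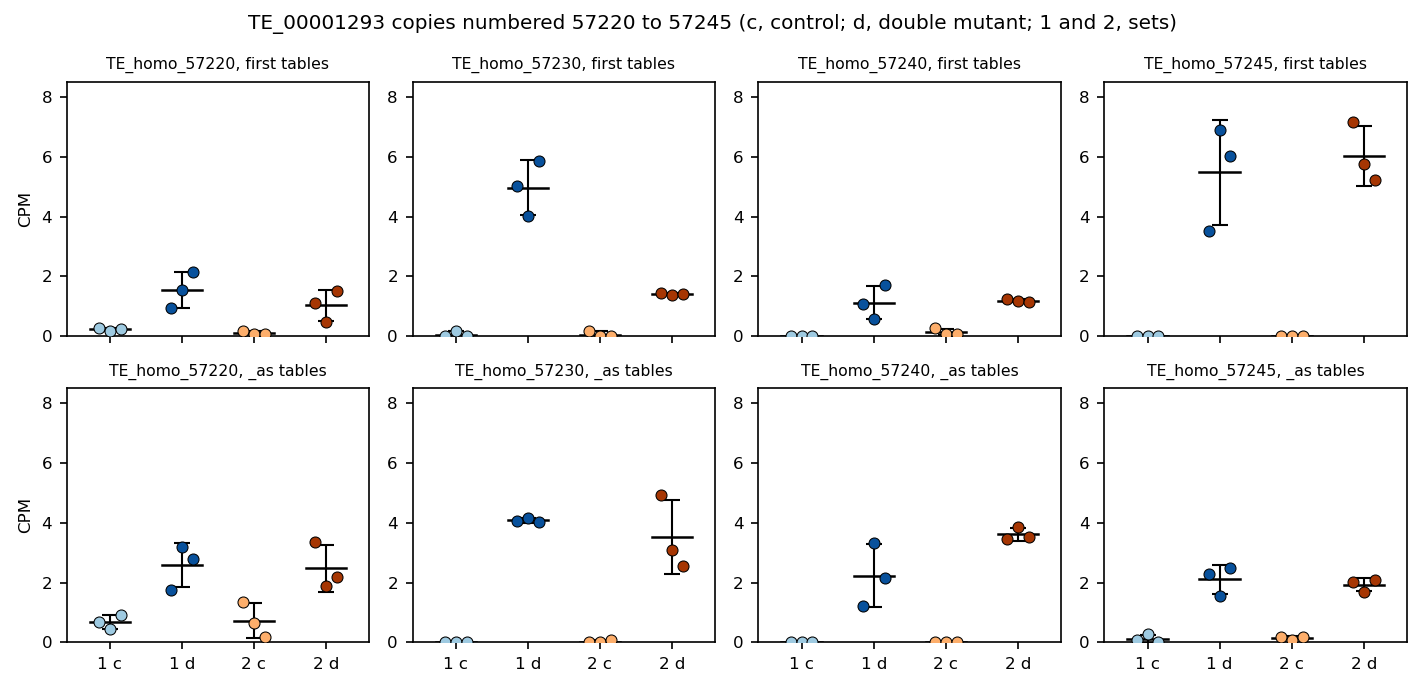
CPM of 4 TE_00001293 copies in each library (points) with the mean and SD of each group of 3, in the first tables (top) and the _as tables (bottom); c marks controls, d double mutants, and 1 and 2 the sets. TE_homo_57245 in the first tables and TE_homo_57240 in the _as tables have 0 counts in all 6 controls and a count in each double mutant library.

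Elsewhere in TE_00001293, TE_homo_58059 rose in the _as tables from 3, 3 and 4 counts to 48, 61 and 93 in set 1 and from 11, 4 and 6 to 27, 30 and 34 in set 2 (log2 fold changes 4.75 ± 0.48 and 2.30 ± 0.40 SE, edgeR adjusted p = 1.30e-04 and 1.90e-04). TE_homo_58449 went from 1, 3 and 0 to 34, 24 and 12 counts and from 0, 1 and 0 to 14, 18 and 17 (edgeR adjusted p = 0.00108 and 4.30e-05). Its fitted changes of 4.43 and 5.34 were 5.53 and 7.13 without control replicate 2 of the set. TE_homo_58966 also rose in both sets, by 2.81 and 1.97 (edgeR adjusted p = 0.00308 and 0.00127; 3.76 in set 1 without control replicate 2). The most counted copy of the family on this strand, TE_homo_58062, was expressed in every library and rose less. It was counted 162, 257 and 217 times against 340, 439 and 301 in set 1, and 304, 211 and 251 times against 340, 318 and 305 in set 2 (log2 fold changes 1.19 and 0.54, edgeR adjusted p = 0.00122 and 0.0088). Its set 2 call was lost without double mutant replicate 1 (0.43, edgeR adjusted p = 0.0595) and with the sizes of the _as tables (0.39, adjusted p = 0.0503).

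For some copies of the family with counts, a change was not firm or did not pass. TE_homo_786, which held 57% of its first-table counts, was at 71, 142 and 44 against 140, 93 and 127 counts in set 1 and at 48, 66 and 38 against 39, 42 and 68 in set 2, with overlapping groups in both. Its log2 fold changes were 0.99 (edgeR adjusted p = 0.0477) and 0.16 (adjusted p = 0.65). The set 1 call was lost without control replicate 1 or 3 or double mutant replicate 1 or 3, with 0.75 to 0.89, and with the replicate block (1.02, adjusted p = 0.112). TE_homo_30078 and TE_homo_26864, expressed in the _as tables of every library, had adjusted p of 0.214 and 0.325 in set 1 and 0.577 and 0.259 in set 2 (edgeR).

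The family TE_00000561, with 80 copies, was low in the controls and rose in both sets, with higher values in the Mpez1-2 than in the Mpez1-1 double mutants. Its first-table sum went from 0.811 ± 0.329 to 2.82 ± 0.259 CPM in set 1 and from 0.486 ± 0.208 to 7.36 ± 1.03 CPM in set 2 (log2 fold changes 1.81 ± 0.35 and 3.93 ± 0.32 SE, edgeR adjusted p = 0.00226 and 8.59e-08). The _as sum went from 0.307 ± 0.136 to 2.36 ± 0.351 and from 0.214 ± 0.108 to 7.15 ± 0.696 CPM (2.93 and 5.04, edgeR adjusted p = 8.41e-04 and 1.17e-11). The difference between the sets' fold changes was 2.08 on the log2 scale in the first tables (edgeR adjusted p = 0.0218) and 2.06 in the _as tables (adjusted p = 0.068). The call was lost without set 1 control replicate 2 or 3 or double mutant replicate 2, and without set 2 control replicate 1 or 2 or double mutant replicate 1 or 3, at 1.88 to 2.08 (largest adjusted p = 0.0675). Of the 15 families tested for such a difference in the first tables, 1 was higher in set 2, this one, and 1 lower (backgrounds 2.79% and 3.19%).

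Different copies of TE_00000561 carried the signal in the 2 kinds of table. TE_homo_12158 held 89.4% of the family's first-table counts, at 4, 8 and 5 against 18, 23 and 15 in set 1 and 4, 2 and 6 against 65, 60 and 77 in set 2 (log2 fold changes 2.13 ± 0.34 and 4.23 ± 0.34 SE, edgeR adjusted p = 5.82e-04 and 1.34e-07). It was the only DTC copy of 21 in the first tables whose fold change was higher in set 2 (background 1.88%), by 2.05 (edgeR adjusted p = 0.0487), and none was lower (1.04%; 2 at an unadjusted p under 0.05, 0 with DESeq2). The call of TE_homo_12158 stayed only without set 1 control replicate 1 or set 2 control replicate 3. It was lost without each of the other 10 libraries (1.76 to 2.14, largest adjusted p = 0.126), without the filter (adjusted p = 0.478), with the replicate block (0.0992), with DESeq2 (0.0709) and with RLE factors (0.0517). On the other strand TE_homo_40004 was at 0 in all 6 controls and at 7, 8 and 5 and at 30, 40 and 30 counts in the double mutants, at least 9.03-fold and at least 37-fold higher. TE_homo_39909 and TE_homo_39926 rose in set 2 from 0 in each control to 24, 17 and 26 and to 11, 16 and 10 counts, at least 24.8-fold and 13.7-fold higher. All 3 passed in set 2 (edgeR adjusted p = 1.83e-06, 1.11e-05 and 1.61e-04) and had too few counts for the filter in set 1.

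The larger family TE_00001193, with 223 copies, rose in both sets and both kinds of table. Its first-table sum went from 0.434 ± 0.208 to 2.87 ± 0.512 CPM in set 1 and from 0.184 ± 0.0955 to 2.03 ± 0.216 CPM in set 2 (log2 fold changes 2.71 and 3.44, edgeR adjusted p = 6.12e-04 and 3.73e-05). Its _as sum rose by 0.99 and 1.18 (edgeR adjusted p = 0.018 and 1.21e-04). The first of these was lost without set 1 control replicate 1 or 3 or double mutant replicate 2 (1.02, 0.79 and 1.00, edgeR adjusted p = 0.0515, 0.065 and 0.0619). TE_00000987 rose in the _as tables, by 1.54 and 2.59 (edgeR adjusted p = 0.00591 and 9.11e-05). TE_00001293, TE_00000561 and TE_00001193 with TE_00000411 were the 4 of 8 families higher in both sets in the first tables (background 39.9%). The first 3 with TE_00000987 were the 4 of 13 in the _as tables (27.6%).

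A copy with 0 counts in all 6 controls and a count in all 6 double mutant libraries was rare. There were 4 such copies among the 4113 DTC rows in the first tables, against 47 among all 89262 rows (background 0.0527%). In the _as tables there were also 4 of 4113, against 63 of 89262 (0.0706%). Several of these copies shared a family, and their number was not tested against other classes. Those of the first tables were TE_homo_57245, TE_homo_62446 of TE_00001248 (31, 20 and 3 counts in set 1, 9, 2 and 10 in set 2), and TE_homo_68642 and TE_homo_68676 of TE_00001193 (43 and 35 counts in all). Those of the _as tables were TE_homo_57240, TE_homo_40004, TE_homo_39926 and TE_homo_55431 of TE_00000987 (4, 11 and 10 in set 1, 9, 4 and 4 in set 2).

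**Figure D4:**
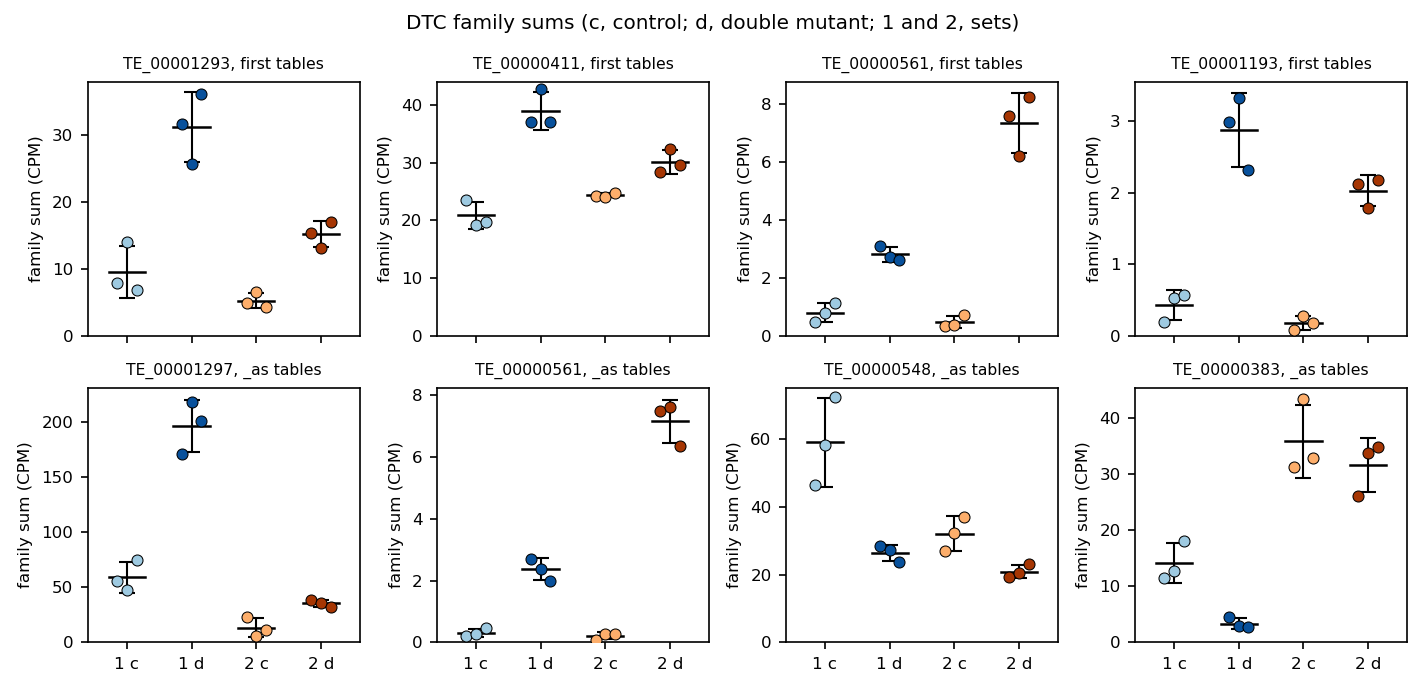
Family sums in CPM for each library (points) with the mean and SD of each group of 3; c marks controls, d double mutants, and 1 and 2 the sets, and each panel has its own scale. Double mutants lie above controls in both sets in the panels of TE_00001293, TE_00000411, TE_00000561, TE_00001193 and TE_00001297, below them in both sets for TE_00000548, and below them in set 1 alone for TE_00000383, whose set 2 groups overlap.

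The family with most first-table counts, TE_00000411, was expressed in the controls and rose less. Its 27 copies held 34.5% of the DTC counts there and went from 20.9 ± 2.43 to 39 ± 3.32 CPM in set 1 and from 24.4 ± 0.361 to 30.1 ± 2.09 CPM in set 2. The log2 fold changes were 0.90 ± 0.12 and 0.35 ± 0.09 SE (edgeR adjusted p = 3.28e-04 and 0.00425; in set 2 0.0518 with DESeq2). The change was smaller in set 2 by 0.60 on the log2 scale (set 2 minus set 1 -0.60, edgeR adjusted p = 0.0218). That call was lost without set 1 control replicate 2 or 3 or double mutant replicate 2, and without set 2 control replicate 1 or 3 or double mutant replicate 1 or 3 (-0.47 to -0.60, largest adjusted p = 0.112).

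The copies of TE_00000411 did not move alike. TE_homo_75722 rose in set 1 from 13, 20 and 9 to 23, 54 and 37 counts and passed in set 2 at 48, 17 and 13 against 54, 39 and 73, with overlapping groups (log2 fold changes 1.88 and 1.29, edgeR adjusted p = 0.00164 and 0.0407). The second call was lost without control replicate 2 or 3 or double mutant replicate 1 or 3 (0.97 to 1.24), and the value was 2.05 without control replicate 1. TE_homo_75815 rose in set 1 from 1, 0 and 7 to 31, 31 and 23 counts (3.75, edgeR adjusted p = 0.00166; 5.97 without control replicate 3) and had 2, 0 and 10 against 1, 10 and 7 in set 2. TE_homo_75663 rose in set 1 from 25, 17 and 11 to 32, 48 and 30 counts (1.48, edgeR adjusted p = 0.00234; adjusted p = 0.119 with all 12 libraries in 1 fit). In set 2 its controls had 0, 39 and 42 counts. TE_homo_78377, the most counted copy, was at 62, 56 and 57 against 65, 75 and 64 in set 1 (0.66, edgeR adjusted p = 0.011; 0.0535 with DESeq2 and 0.211 without the filter) and did not pass in set 2 (0.27, adjusted p = 0.312).

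In set 2, TE_homo_75923 passed with overlapping groups at 59, 47 and 57 against 72, 101 and 54 counts (0.68, edgeR adjusted p = 0.0253), and TE_homo_75952 fell from 66, 64 and 55 to 30, 36 and 40 (-0.60, adjusted p = 0.0252). Neither call was firm. The first was lost with DESeq2 (adjusted p = 0.112), with all 12 libraries in 1 fit (0.0519) and without control replicate 2 or double mutant replicate 1 or 2 (0.0789, 0.0831 and 0.166). The second was lost with DESeq2 (0.16), without the filter (0.239), in the fit of 12 libraries (0.0855) and without control replicate 1 or 2 or double mutant replicate 1 or 2 (0.059, 0.0727, 0.0779 and 0.0596).

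TE_00001297 has only 7 copies but held 31.4% of the DTC counts of the _as tables. Its sum there rose from 59.3 ± 14.1 to 197 ± 23.5 CPM in set 1 (570, 533 and 654 against 1265, 1836 and 1304 counts; log2 fold change 1.73 ± 0.19 SE, edgeR adjusted p = 9.48e-05). In set 2 it was 258, 67 and 124 against 344, 358 and 342 counts, without overlap, but the spread of the controls was wide and the test was not passed (1.43, edgeR adjusted p = 0.104; 0.0331 with DESeq2 and 0.0164 with all 12 libraries in 1 fit). Without set 2 control replicate 1 the value was 2.05 (adjusted p = 1.09e-10) and without replicate 2 it was 1.09 (adjusted p = 0.0172).

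TE_homo_37394 was the most counted copy of this family, at 318, 304 and 370 against 671, 1067 and 771 counts in the _as tables of set 1 and at 68, 5 and 44 against 56, 74 and 89 in set 2. It rose in set 1 (1.75 ± 0.22 SE, edgeR adjusted p = 3.62e-04) and did not pass in set 2 (1.10, adjusted p = 0.233). TE_homo_37435 rose by 1.69 and 1.33 (edgeR adjusted p = 3.55e-04 and 0.0208) and TE_homo_37401, whose set 2 groups overlapped, by 1.62 and 1.31 (adjusted p = 0.00207 and 0.0339). The set 2 calls of both were lost in 4 of the 6 fits that left out 1 library. For TE_homo_37435 these lacked control replicate 3 or double mutant replicate 1, 2 or 3 (1.15 to 1.42), and for TE_homo_37401 control replicate 2 or 3 or double mutant replicate 1 or 2 (0.92 to 1.35). Without set 2 control replicate 1 the values were 1.98 and 2.02.

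TE_homo_41028 of the same family changed on 1 strand more than on the other. Its _as counts rose from 7, 9 and 3 to 16, 27 and 17 in set 1 and from 4, 5 and 6 to 43, 38 and 51 in set 2 (log2 fold changes 2.08 ± 0.40 and 3.30 ± 0.37 SE, edgeR adjusted p = 0.003 and 3.27e-06). Its first-table counts were 64, 64 and 54 against 35, 50 and 27 in set 1 (-0.28, edgeR adjusted p = 0.275) and 45, 34 and 43 against 51, 64 and 54 in set 2 (0.67, adjusted p = 0.0162). The last call was lost with DESeq2 (adjusted p = 0.122), without the filter (0.118) and without control replicate 2 or double mutant replicate 2 (0.0558 and 0.0678). The share of its counts in the first tables thus went from 90.5% to 65.1% in set 1 and from 89.1% to 56.1% in set 2, and in every double mutant library it was below that of every control of the set.

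TE_00000548 was the only DTC family that fell in both sets, of 13 tested in both in the _as tables (background 2.34%), and the only one of 13 lower in set 2 (5.29%). Its sum went from 58.9 ± 13.1 to 26.4 ± 2.39 CPM in set 1 and from 32.1 ± 5.12 to 20.9 ± 1.96 CPM in set 2 (log2 fold changes -1.15 ± 0.18 and -0.57 ± 0.13 SE, edgeR adjusted p = 9.56e-04 and 6.35e-04). A single copy, TE_homo_32813, held 97.8% of its counts and was the most counted DTC copy of the _as tables. It was counted 471, 651 and 623 times against 206, 223 and 150 in set 1 and 295, 342 and 402 times against 159, 193 and 226 in set 2, and fell by 1.17 and 0.65 on the log2 scale (edgeR adjusted p = 0.0012 and 0.00213). Another copy of the family, TE_homo_13041, rose in set 2 from 5, 4 and 7 to 13, 13 and 17 counts (1.60, edgeR adjusted p = 0.00954). That call was lost with DESeq2 (adjusted p = 0.0977), without the filter (adjusted p = 0.05) and without double mutant replicate 3 (adjusted p = 0.0558).

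TE_00000383 fell in set 1 and not in set 2. In the _as tables its 124 copies were counted 117, 142 and 158 times in set 1 controls and 33, 24 and 18 times in the Mpez1-1 double mutants, 14 ± 3.56 against 3.36 ± 0.957 CPM (-2.05 ± 0.29 SE on the log2 scale, edgeR adjusted p = 5.81e-04). It was 1 of 2 families of 17 lower in set 1 (background 7.01%). In set 2 it was counted 350, 463 and 363 times against 234, 342 and 367, 35.8 ± 6.5 against 31.6 ± 4.74 CPM (-0.13 ± 0.14, edgeR adjusted p = 0.48). The difference between the sets was 1.87 ± 0.30 on the log2 scale (edgeR adjusted p = 6.01e-04), and it was the only family of 20 in the _as tables whose fold change differed (background 5.67% higher and 5% lower in set 2). The controls themselves differed, being higher in set 2. In the first tables the family had 75 counts in all.

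The fall of TE_00000383 was seen in many of its copies, but these may share reads and are not independent members. Of the 27 with at least 10 counts, which held 96.2% of its counts, 16 had all set 1 double mutant libraries below all controls, 2 had them above and 9 overlapped. Among all transposable element copies with as many counts, 326 of 2900 lay wholly below (11.2%) and 30.1% wholly above. In set 2, 7 of the 27 lay below, 1 above and 19 overlapped (backgrounds 5.38% below and 31% above). The set 1 double mutants had 0 counts in all 3 libraries for 14 of the 27 copies (background 5.69%), of which 1 also had none in the set 1 controls and 2 had a single count there. The limit of 10 counts is over all 12 libraries, and many of the 14 had few counts in set 1. TE_homo_47510 and TE_homo_48520 had 4 over the 3 set 1 controls and TE_homo_45204 had 9, against 50 for TE_homo_45200. Where the controls had so few, 0 counts alone do not show a loss. In 26 of the 27 the counts of the 3 set 2 controls together were above those of set 1. The share of all transposable element copies that did so was not counted, so this is not shown to be particular to the family.

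The most counted copy, TE_homo_45200, was at 14, 15 and 21 counts in set 1 controls and 0 in each Mpez1-1 double mutant, at least 12.6-fold lower against a floor of 3 counts over the 3 libraries (edgeR adjusted p = 0.00196). In set 2 it was at 80, 87 and 66 against 40, 54 and 54 counts, also without overlap, and did not pass (-0.46, edgeR adjusted p = 0.104; 0.032 with the sizes of the _as tables). TE_homo_47504 fell in set 1 from 15, 19 and 24 to 0, 1 and 1 (-4.24, edgeR adjusted p = 0.00123) and had 33, 34 and 18 against 27, 21 and 31 in set 2. With TE_homo_32813 these were the 3 copies lower in set 1. TE_homo_45337 had 19, 11 and 20 against 1, 1 and 3 counts in set 1, below the filter, and 54, 85 and 61 against 47, 53 and 67 in set 2. TE_homo_43689 moved the other way, from 1, 1 and 1 to 12, 6 and 2 counts in set 1 and from 2, 8 and 15 to 21, 23 and 33 in set 2, and passed in set 2 (1.80, edgeR adjusted p = 0.00631; 2.52 without control replicate 3).

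Of the neighbours of TE_homo_45200 by number, TE_homo_45204 of the same family and TE_homo_45203, of an unknown class, had 4, 3 and 2 and 2, 10 and 13 counts in set 1 controls and none in the double mutants. TE_homo_45205, also of the family, overlapped, with 0, 4 and 5 against 0, 1 and 0 counts. A pair of copies, TE_homo_78208 and TE_homo_78548, had identical counts in every library (59 in all), and they are not independent members. In every control TE_homo_63646 of the same family had the same counts as this pair. Over all DTC copies, 7 of 38 in the _as tables had fold changes that differed between the sets, 5 of them higher in set 2 (background 8.86%) and 2 lower (5.13%). All 5 were TE_00000383 copies, and the others were TE_homo_58059 of TE_00001293 and TE_homo_4940 of TE_00000525.

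**Figure D5:**
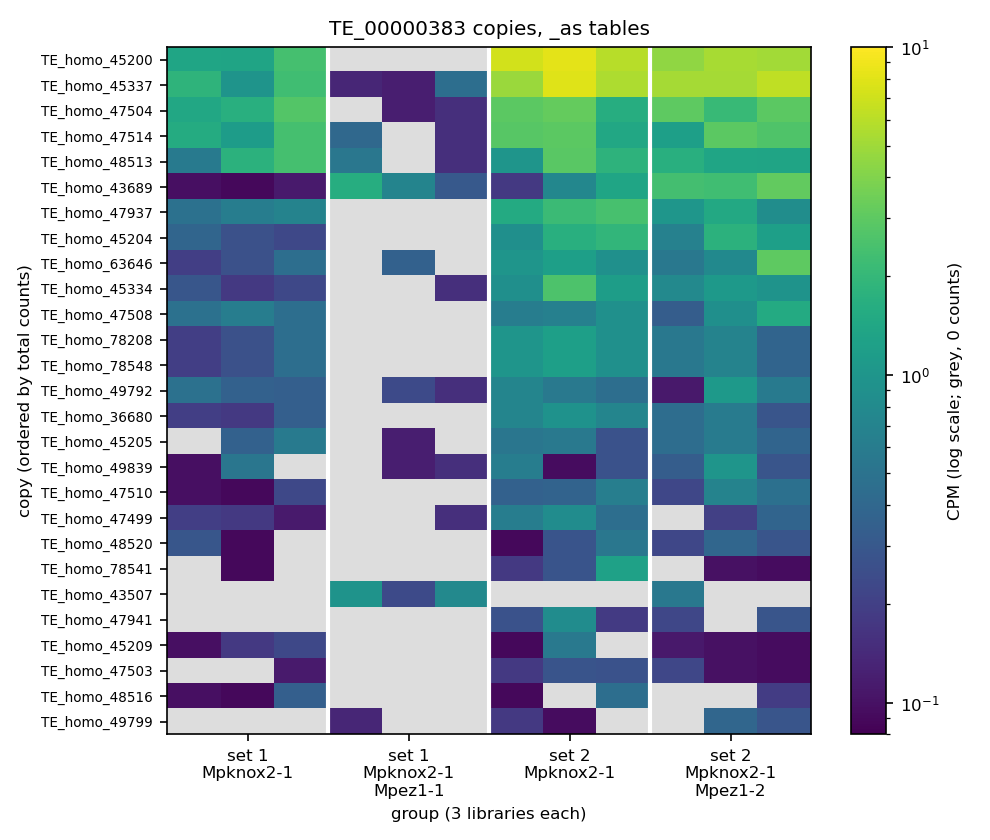
CPM of the 27 TE_00000383 copies with at least 10 counts in the _as tables, 1 row a copy and 1 column a library, on a log colour scale; grey cells had 0 counts. The 3 Mpez1-1 columns are all grey for 14 copies, of which 1, TE_homo_47941, is also grey in the set 1 controls, while in set 2 the groups overlap in 19 of the 27 copies. Many of the 14 had few counts in the set 1 controls.

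Some well counted families showed no change or a change that was not firm. TE_00000525 has 222 copies, but TE_homo_10514 held 90.9% of its first-table counts, at 168, 121 and 106 against 104, 136 and 103 in set 1 and 137, 71 and 101 against 80, 70 and 92 in set 2. It was the most counted DTC copy of the first tables, its groups overlapped in both sets, and its log2 fold changes of 0.23 and -0.15 did not pass (edgeR adjusted p = 0.278 and 0.604). In the _as tables the family passed in set 1 (0.78, edgeR adjusted p = 0.0359) and not in set 2 (-0.14, adjusted p = 0.754). The set 1 call was lost with DESeq2 (adjusted p = 0.109), without the filter (0.0797), with the sizes of the _as tables (0.0759), with the replicate block (0.0764) and without control replicate 1 or 2 or double mutant replicate 1 or 2 (0.128, 0.148, 0.0725 and 0.143).

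Among smaller families, TE_00001271 rose in the _as tables of set 1 through TE_homo_2055, from 7, 9 and 7 to 36, 50 and 69 counts (log2 fold change 3.21 ± 0.41 SE, edgeR adjusted p = 4.13e-04). In set 2 that copy was at 20, 3 and 8 against 16, 11 and 26 (0.97, adjusted p = 0.165; 0.0105 without control replicate 1), and the difference between the sets did not pass (-2.28, edgeR adjusted p = 0.0521). It passed with DESeq2 (adjusted p = 0.0433), without the filter (0.0258), without set 1 double mutant replicate 1 (0.0396) and without set 2 control replicate 2 (0.0242). The largest family, TE_00000937 with 558 copies, had 160 counts in the first tables and 426 in the _as tables. Its _as sum passed in set 2 (1.02, edgeR adjusted p = 0.0307), a call lost without control replicate 2 (0.96, adjusted p = 0.0864) or double mutant replicate 1 (0.56, adjusted p = 0.372), with DESeq2 (adjusted p = 0.156) and with the sizes of the _as tables (adjusted p = 0.0631). Its most counted copy TE_homo_58035 was at 8, 7 and 8 against 32, 11 and 19 in set 2 (1.64, edgeR adjusted p = 0.00955; 0.106 without double mutant replicate 1).

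Genes of transposable element silencing and of PRC2, the mutated gene included, were taken as a list of 50 symbols, of which 21 were found and 17 tested. In set 1, 3 were higher and 1 lower (gene backgrounds 26.5% and 24.1%), and in set 2, 3 were higher and 4 lower (20.4% and 17.4%). The lower gene of set 1 was MpE(z)1 itself, which was also 1 of the 4 in set 2. MpE(z)2, a paralogue of the targeted gene, had 0 counts in all 6 controls and 24, 36 and 18 in set 1 and 27, 20 and 21 in set 2 double mutants (edgeR adjusted p = 2.42e-04 and 3.54e-05). MpNRPD1, the large subunit of RNA polymerase IV, rose in set 1 (log2 fold change 1.10, edgeR adjusted p = 6.49e-05) and did not pass in set 2 (0.27, adjusted p = 0.178). MpDDM1, a chromatin remodeller needed for DNA methylation of transposons in Arabidopsis, fell in set 2 (-0.48, edgeR adjusted p = 0.0247) and was at -0.11 in set 1 (adjusted p = 0.709). The maintenance methyltransferase MpMET did not pass in either set (0.38 and -0.49, edgeR adjusted p = 0.213 and 0.0571). Others of the list went either way. MpDRMa and MpDNMT3b rose in set 2 (0.37 and 0.27, edgeR adjusted p = 0.00535 and 0.0308). MpDCL1a and MpAGO4a fell there (-0.30 and -0.55, edgeR adjusted p = 7.02e-04 and 0.0269). MpDCL4 rose in set 1 (0.58, edgeR adjusted p = 0.0178).

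The 4 thallus markers found, of 5 listed, were expressed in every group, with summed levels of 94 to 99.9 and 89.6 to 106 CPM in set 1 controls and double mutants and 123 to 126 and 92.8 to 97 CPM in set 2. Of the 4, MpGCAM1 alone was higher in set 1 (log2 fold change 1.15, edgeR adjusted p = 0.00275) and 0 were lower. In set 2, MpNOP1 and MpWIP were lower (-0.45 and -0.41, edgeR adjusted p = 1.87e-04 and 0.00146) and 0 were higher. Gene backgrounds were 26.5% higher and 24.1% lower in set 1, and 20.4% and 17.4% in set 2. The 5 reproductive markers found, of 6 listed, summed to 68.5 to 71.9 and 51.9 to 68.3 CPM in set 1 and to 116 to 117 and 91.4 to 106 CPM in set 2. Within them MpBNB, a regulator of the start of gametangium development, had 0 counts in all 6 controls and 11, 19 and 16 and 10, 14 and 4 in the double mutants. MpFGMYB, known for female differentiation, rose by 1.87 and 2.60 on the log2 scale (edgeR adjusted p = 4.07e-04 and 1.78e-05). MpRKD fell by 0.46 and 0.29 (edgeR adjusted p = 0.0142 and 0.00338). It held most of the reproductive sums, at 66 and 113 CPM in the controls of sets 1 and 2. MpDUO1 did not pass in either set (0.15 and -0.52, edgeR adjusted p = 0.725 and 0.295). Of the reproductive markers 4 were tested in set 1, with 2 higher and 1 lower. In set 2, 3 were tested, with 1 higher and 1 lower. The part of these gene and marker changes in the DTC values was not tested.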

How the data were processed

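PolyA-selected RNA of 14 day thalli was sequenced from 12 libraries, 3 in each of 4 groups, and the labels call them biological replicates. If they did not come from separate cultures, p-values measure only a spread that may be technical. The authors deposited whole-number counts per gene and transposable element copy, not normalized, in 24 tables; reads had been handled with Trim Galore and STAR, per the submitters' processing notes. Not given in the sources used here are their versions, the genome build, the program that counted and how it placed reads matching several copies. Repeats share sequence, so counts of single copies of a family are uncertain. No count gives a length or position, and no sequence of the copies was used here.

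The test was edgeR's quasi-likelihood test (edgeR 4.0.16, R 4.3.3) after filterByExpr (min.count 10, min.total.count 15), on counts as deposited (TMM factors over genes and transposable elements of the first tables, robust quasi-likelihood fit). Each set had a fit of its 6 libraries, and a fit of 12 libraries gave the difference, set 2 minus set 1. Benjamini-Hochberg adjustment ran over all tested transposable element copies, or over all families, with a threshold of 0.05; genes were adjusted apart. CPM used the same library sizes. Ratio intervals are at 95% and, like the floor of 3 counts over 3 libraries, cover counting error only. The scripts were tested on simulated data.

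The members and gene lists were chosen with earlier results of these data known. The text names families of at least 5 CPM and those called in both sets. It also names, for each kind of table, copies called in both sets (up to 8), those with the largest, the lowest and the most different changes (3 each) and the 5 most abundant. TE_homo_47514, TE_homo_47937, TE_homo_4940, TE_homo_13041, TE_homo_58035, TE_homo_37401, TE_homo_39926, TE_homo_43689, TE_homo_57231, TE_homo_75663, TE_00000937 and TE_00001271 and other copies printed with counts only were named after their values were seen, as was TE_homo_2055 of the last family. Alternatives were DESeq2 1.42.0, RLE factors, no filter, a replicate block, 1 fit of 12 libraries, sizes and factors of the _as tables, and leaving out each library.

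Libraries of a group with the same number were not treated as pairs. Every pair of replicates differed by more than counting noise (chi-square per degree of freedom 2.69 to 30.3).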

Additional observations from a re-analysis of the deposited data

Results flagged for a closer look

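The results below are those in which the fold change differed between the Mpez1-1 and the Mpez1-2 set by the test of the difference itself (edgeR adjusted p under 0.05), given as set 2 minus set 1 on the log2 scale. Set and allele cannot be told apart, and the controls of the sets differed as well.

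Members of TE_00000383 in the _as tables made up most of them. The family differed by 1.87, TE_homo_45200 by 6.51 and TE_homo_47504 by 4.30, and these 3 calls held in every alternative and with each library left out. TE_homo_45200 had 0 counts in all 3 Mpez1-1 libraries, so its fitted value depends on the prior count. TE_homo_45337 differed by 2.71 (edgeR adjusted p = 0.0144), lost without set 1 double mutant replicate 2 (adjusted p = 0.0521). TE_homo_47514, at 16, 13 and 21 against 3, 0 and 1 counts in set 1 and 32, 32 and 16 against 11, 30 and 28 in set 2, differed by 3.05 (edgeR adjusted p = 0.0313). That call was lost without set 1 control replicate 3 or double mutant replicate 2, and without set 2 control replicate 3 or double mutant replicate 2 or 3 (2.42 to 2.94), and with the replicate block (adjusted p = 0.059); the value was 4.40 without set 1 double mutant replicate 1. TE_homo_47937, at 5, 7 and 6 against 0 in set 1 (at least 4.46-fold lower) and 17, 23 and 27 against 9, 15 and 9 in set 2, differed by 4.68 (edgeR adjusted p = 0.0287). It was lost without set 1 double mutant replicate 2 or 3 or set 2 double mutant replicate 2 (adjusted p = 0.0741, 0.0614 and 0.0587), without the filter (0.225), with the replicate block (0.0762) and with DESeq2 (0.0664).

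TE_homo_58059 of TE_00001293 rose less in set 2, by -2.51 (edgeR adjusted p = 0.0205), lost without set 1 control replicate 2 (-2.36, adjusted p = 0.0511) or set 2 control replicate 1 (-2.05, adjusted p = 0.0804). TE_homo_4940 of TE_00000525, at 21, 23 and 25 against 28, 51 and 31 counts in set 1 and 31, 44 and 28 against 23, 19 and 28 in set 2, differed by -1.48 (edgeR adjusted p = 0.0364). That call stayed without set 1 double mutant replicate 1 or 3 or set 2 control replicate 3, and was lost without each of the other 9 libraries (largest adjusted p = 0.111), without the filter (0.263) and with the replicate block (0.0858). In the first tables TE_00000561 differed by 2.08, its copy TE_homo_12158 by 2.05 and TE_00000411 by -0.60, and each was lost without most single libraries.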

How the results depend on the processing

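Of 76 fold changes of named members that passed, 57 passed in every alternative and with each library left out, as did 3 of 11 differences between sets. None that passed changed sign; some that did not pass did, such as TE_00000383 in set 2 of the _as tables (-0.23 to 0.03). The summed log2 ratios were 0.88, 0.72, 1.28 and 0.69 (first tables of sets 1 and 2, then _as tables) without the most abundant copy, and 0.73 to 0.83, 0.56 to 0.66, 0.81 to 1.01 and 0.42 to 0.50 with 1 library left out. In the _as tables the most abundant copy was TE_homo_32813, which fell in both sets. Copies higher in the first tables numbered 13 with DESeq2 and 15 without the filter in set 1 (8 in the main fit) and 12 without the filter in set 2 (7); in the _as tables of set 1 they numbered 25 and 26 (15). Copies lower numbered 0 in the first tables of set 2 with DESeq2, without the filter and in 1 fit of 12 libraries (1), 8 in the _as tables of set 1 under the same 3 (3), and 2 in those of set 2 with the sizes of the _as tables (1). Copies that differed between sets numbered 0 in the first tables with RLE factors, DESeq2, no filter or the block (1) and 4 in the _as tables with the replicate block (7); families numbered 2 in the _as tables with DESeq2 or without the filter (1). The cause was not tested.

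With 1 library left out, copies higher numbered 8 to 11 and 5 to 11 in the first tables (11 without set 2 control replicate 1) and 14 to 17 and 12 to 18 in the _as tables of sets 1 and 2. Copies lower numbered 0 to 0 and 0 to 1, then 3 to 7 (7 without set 1 double mutant replicate 1) and 1 to 2. Families higher numbered 4 to 5, 5 to 7, 5 to 7 and 4 to 7, and families lower 2 to 3 and 1 to 1 in the _as tables and 0 to 0 in the first. Copies that differed numbered 0 to 1 and 3 to 10, and families 0 to 2 and 1 to 3.

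Same-numbered libraries had correlations of 0.05, -0.00 and 0.11 in set 1 and 0.08, 0.05 and 0.07 in set 2, so numbers were not taken to pair them; in set 2, but not set 1, each library correlated best with its own number, which is a hint from the data only. The block moved no other count of calls by over 1.5 times. Scaling by the _as tables moved the median of antisense gene counts from 0.12 to -0.02 and from -0.05 to -0.21. Most members had under 10 counts over 12 libraries, and differences there were not detectable at this depth.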
